A study of Homo sapiens with 6 samples.

Results

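The genes described here build, bind and cut the extracellular matrix. They were taken from an RNA-Seq table of PANC-1 cells, a line from a human pancreatic ductal carcinoma, with and without STYK1 depletion. Members were picked by gene symbol alone: the numbered collagen chains, and symbols that begin like laminins, integrins, matrix metalloproteinases (MMP), their inhibitors (TIMP), ADAM and ADAMTS proteases, serpins, lysyl oxidases (LOX), prolyl 3-hydroxylases (P3H), fibrillins, latent TGF-β binding proteins, CCN proteins, tenascins, SPARC and related matrix proteins. The rule selected 33 of the 995 genes deposited. In the reference annotation it matches 245 protein-coding symbols. The other symbols were not analysed here. One of the 33, LOXL1-AS1, is an antisense transcript that met the rule by its letters and is not among the 245.

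The 3 control libraries and the 3 libraries labelled shSTYK1 were made from poly(A)-selected RNA of separate biological replicates. The shSTYK1 cells carried a lentiviral short hairpin RNA against STYK1 in a puromycin vector, and resistant clones were isolated and grown out. The sources used here do not state which of the study's hairpins was sequenced, whether the libraries came from 1 clone, or what the control cells carried. The libraries were made to ask which genes respond to loss of this kinase. STYK1 was not analysed here, so the depletion could not be checked in these libraries. Of the marker genes listed for ductal, mesenchymal and vascular or blood cells, CDH1, CDH2 and KDR had values, too few to check the labelled cell type.

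The authors deposited z-scores, which give each gene a mean of 0 and an SD of 1 over the 6 libraries. A whole-number search recovered the expression values behind them, and all 33 matrix genes were solved. The unit of these values is not stated and the depth per library is unknown, so levels are compared within a gene only. The groups were then tested with limma on log2(value + 1), in genes that reached a value of 1 in 3 libraries. On that scale the fold changes of weakly expressed genes come out too small. In bulk RNA, fewer expressing cells and less RNA per cell cannot be told apart.

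The extracellular matrix is a mesh of collagens, laminins and glycoproteins that cells secrete and anchor to through integrins. Fibrillar collagens give it tensile strength, collagen IV and laminins form the basement membrane under epithelia, and metalloproteinases cut both. Pancreatic ductal carcinoma is known for a dense collagen-rich stroma, most of it laid down by fibroblasts, although carcinoma cells transcribe matrix genes as well.

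Matrix genes moved in both directions. The table held 14 of 44 coding collagen symbols, and these, apart from collagen VI, were lower in shSTYK1 cells. By the mean z-score 23 of the 33 genes were lower and 10 were higher. Of the 26 that reached the limit on low values, 17 fell and 9 rose with an adjusted p-value under 0.05 in limma. COL11A1, COL4A1, COL4A2, COL4A5, MMP14 and MMP1 reached that limit in control libraries only, and LOXL1, LOXL1-AS1, ITGAM and MMP24 in shSTYK1 libraries only. For these genes, passing the limit already fixed the direction and the separation of the groups. Their calls, and their part in the median below, are therefore no separate evidence. Among all 740 genes tested, 44.5% were called lower and 51.2% higher, so nearly every gene of this table is called, and that each matrix gene passed the threshold says nothing particular about the matrix. The median log2 fold change of the 26 genes was -1.03, and that of all genes tested was 0.55. The latter depended on the limit on low values: it was -0.10 over all 994 recovered genes and 0.89 with a limit of 5. The groups did not overlap in 31 of the 33 genes, against 93.7% of the 995 genes. For any 1 gene taken alone, an exact two-sided permutation test over 3 and 3 libraries has a smallest p of 0.1. The table holds genes that the study had called changed in these same 6 libraries, so the limma p-values are too small as evidence for any 1 gene, and a call here describes the size of a difference against the spread of its replicates.

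**Figure D1:**
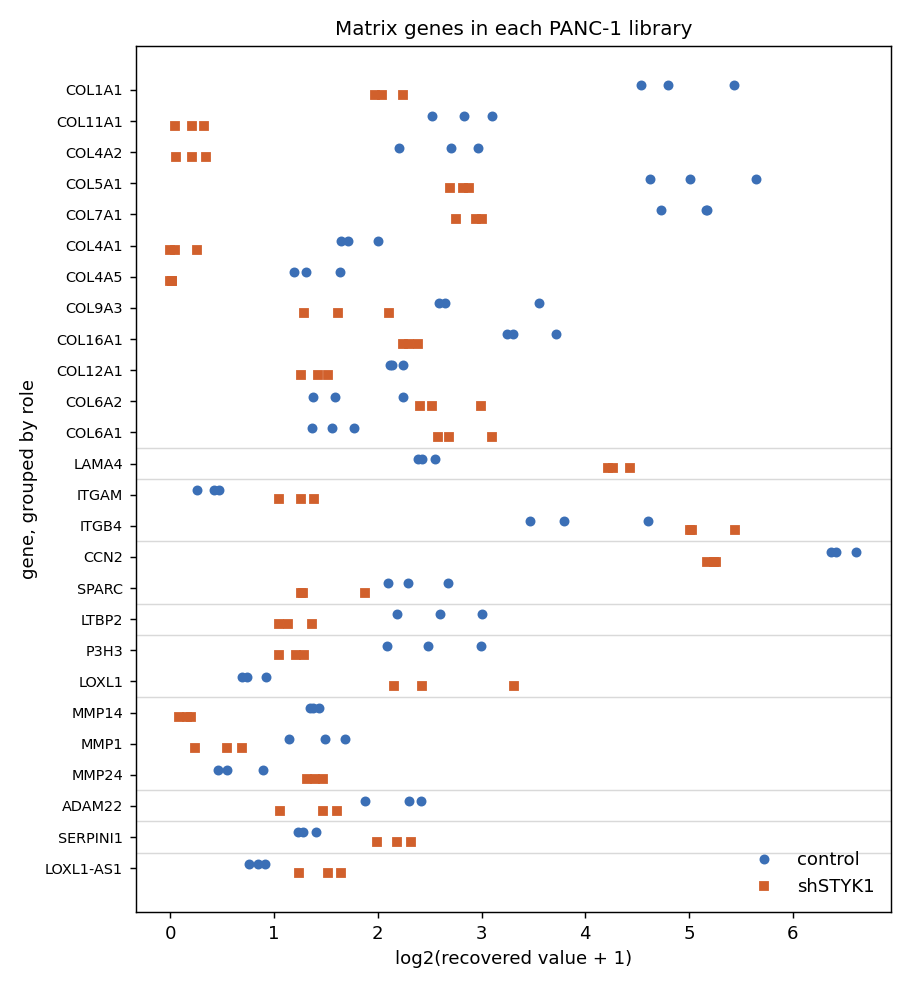
The horizontal axis gives log2(recovered value + 1), and each row is 1 of the 26 matrix genes tested, grouped by role. Blue circles are the 3 control and orange squares the 3 shSTYK1 libraries, and in each row the circles and squares do not overlap.

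Fibrillar collagens form the banded fibres of connective tissue. COL1A1 (ENSG00000108821, chr17:50183289-50201632, minus strand, GRCh38), the α1 chain of collagen I, had recovered values of 26.73, 42.24 and 22.24 in the control libraries and 3.12, 3.73 and 2.94 in the shSTYK1 libraries. Every control library was far above every shSTYK1 library. The control mean of 30.4 ± 10.5 was 9.32 times the shSTYK1 mean of 3.26 ± 0.414 (SD, n = 3 each). The log2 fold change was -2.84 (limma, standard error or SE 0.23, adjusted p = 2.61e-05), the largest fall among the matrix genes on this scale. With a pseudocount of 0.1 in place of 1, COL1A1 was at -3.13, and COL11A1, COL4A2, COL4A1 and COL4A5, which have lower values with shSTYK1, were lower still.

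COL5A1 (chr9:134641774-134844843), whose collagen V chain helps to start and size collagen I fibrils, was at 31.28, 48.90 and 23.57 in control libraries, against 5.49, 6.34 and 6.05 with shSTYK1. The control libraries spread more widely than the shSTYK1 libraries, as in COL1A1, and control replicate 2 was the highest in both genes. The log2 fold change of COL5A1 was -2.29 (limma, SE 0.24, adjusted p = 8.75e-05). COL11A1 (chr1:102876467-103108872), a minor fibrillar chain typical of cartilage, was at 4.74, 7.59 and 6.10 in control libraries, against 0.16, 0.25 and 0.03 with shSTYK1. Its level in shSTYK1 cells was close to the lower end of the scale. The log2 fold change was -2.62 (limma, SE 0.17, adjusted p = 1.16e-05), and -4.75 with a pseudocount of 0.1. The partner chains COL1A2 and COL5A2 were not analysed here.

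Collagen IV is the sheet-forming collagen of basement membranes, and its chain genes sit in head-to-head pairs that share a promoter region. COL4A1 (chr13:110148963-110307233, minus strand) was at 2.27, 3.01 and 2.13 in control libraries, against 0.03, 0.20 and 0.00 with shSTYK1. COL4A2 (chr13:110305812-110513209, plus strand) was at 5.51, 6.84 and 3.60 in control libraries, against 0.16, 0.27 and 0.04 with shSTYK1. Both genes of the pair fell to near 0, with control replicate 2 and shSTYK1 replicate 2 the highest library of their group in each. The log2 fold changes were -1.68 (limma, SE 0.15, adjusted p = 4.07e-05) for COL4A1 and -2.42 (limma, SE 0.20, adjusted p = 3.44e-05) for COL4A2. With a pseudocount of 0.1 they were -4.01 and -4.46.

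The second pair lies on chromosome X. COL4A5, the chain altered in X-linked Alport syndrome, was at 1.29, 1.47 and 2.10 in control libraries, against 0.01, 0.00 and 0.01 with shSTYK1, a log2 fold change of -1.37 (limma, SE 0.14, adjusted p = 8.57e-05), or -3.98 with a pseudocount of 0.1. Its neighbour COL4A6 was below the limit for testing, with control values of 0.16, 0.18 and 0.04 and shSTYK1 values of 0.00, 0.00 and 0.02. The groups did not overlap in either gene. The nearest starts of COL4A5 and COL4A6 lie 380 bases apart in RefSeq, and those of COL4A1 and COL4A2 lie 127 apart. All 4 collagen IV chains of the table stood lower in shSTYK1 cells, 3 of them by the test. These 3 reached the limit for testing in control libraries only, which fixed their direction.

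COL7A1 (chr3:48564073-48595267, minus strand) encodes the anchoring fibril collagen that fastens epithelium to the tissue below. It was at 35.18, 34.87 and 25.50 in control libraries, against 5.75, 7.02 and 6.72 with shSTYK1, with a wide gap between the groups. The log2 fold change was -2.12 (limma, SE 0.16, adjusted p = 2.11e-05). Several collagens that decorate other fibrils or link them were lower too. COL16A1 (chr1:31652247-31704319) was at 8.46, 12.16 and 8.87 in control libraries, against 3.73, 4.24 and 3.94 with shSTYK1, a log2 fold change of -1.11 (limma, SE 0.16, adjusted p = 0.000288). COL9A3, a chain of the cartilage collagen IX, fell from 7.02 ± 3.26 to 2.28 ± 0.954 (SD, n = 3), with a log2 fold change of -1.26. COL12A1 fell from 3.50 ± 0.219 to 1.65 ± 0.236 (SD, n = 3), with a log2 fold change of -0.77, the smallest called fall among the collagens. COL21A1, below the limit for testing, was at 0.42, 0.50 and 2.20 in control libraries, against 0.00, 0.06 and 0.03 with shSTYK1, so that 1 control library set most of its control mean.

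Collagen VI, which forms beaded filaments close to the cell surface, went the other way. COL6A1 (chr21:45981737-46005050) was at 1.95, 2.41 and 1.57 in control libraries, against 5.43, 7.6 and 5.0 with shSTYK1. COL6A2 (chr21:46098097-46132849) was at 2.00, 3.74 and 1.60 in control libraries, against 4.29, 6.95 and 4.74 with shSTYK1. In both genes each shSTYK1 library was above each control library, narrowly so in COL6A2, and replicate 2 was the highest of each group. The log2 fold changes were 1.23 (limma, SE 0.18, adjusted p = 0.000346) and 0.90 (limma, SE 0.25, adjusted p = 0.00849). After median-of-ratios scaling COL6A2 was at 0.59 (adjusted p = 0.0325 from limma). The same-strand neighbours lie 93047 bases apart, from the end of COL6A1 to the start of COL6A2. Of the 14 collagens in the table, 12 reached the limit for testing. Of these, 10 fell and 2 rose, with a median log2 fold change of -1.53. COL11A1, COL4A1, COL4A2 and COL4A5 reached the limit in control libraries only, which fixed their direction. Their part in this count and median is therefore no separate evidence. Among all 740 genes tested, 44.5% were called lower and 51.2% higher, with a median log2 fold change of 0.55.

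Laminins are the other scaffold of basement membranes. LAMA4 (ENSG00000112769, chr6:112108760-112254939, minus strand), the α4 chain found in laminins around vessels, muscle and fat, was at 4.87, 4.38 and 4.23 in control libraries, against 17.62, 20.64 and 18.23 with shSTYK1. The replicates lay close together within each group. Its mean went from 4.49 ± 0.335 to 18.8 ± 1.60 (SD, n = 3), a ratio of 4.19 and a log2 fold change of 1.85 (limma, SE 0.12, adjusted p = 1.21e-05). LAMA4 was the only laminin chain of the 12 coding symbols that had a value here.

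Both integrins in the table rose. ITGB4 (chr17:75721328-75757818), the β4 subunit that pairs with α6 in hemidesmosomes and binds laminin, was at 12.88, 23.32 and 10.08 in control libraries, against 31.30, 42.51 and 31.67 with shSTYK1. Control replicate 2 came nearest to the shSTYK1 libraries, and the groups did not overlap. The log2 fold change was 1.21 (limma, SE 0.28, adjusted p = 0.00363). ITGAM, the αM subunit best known from myeloid cells, went from 0.310 ± 0.0985 to 1.36 ± 0.276 (SD, n = 3), low values with a log2 fold change of 0.85 (limma, SE 0.14, adjusted p = 0.000594), or 1.84 with a pseudocount of 0.1. Neither the integrin partners ITGA6 and ITGB2 nor the blood-cell markers PTPRC and CD68 were analysed here.

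Matricellular proteins sit in the matrix and act on cell behaviour more than on structure. CCN2 (ENSG00000118523, chr6:131948176-131951373, minus strand), also called connective tissue growth factor and a textbook target of YAP with TEAD factors, was at 81.42, 96.72 and 84.31 in control libraries, against 37.20, 36.69 and 34.99 with shSTYK1. The shSTYK1 libraries differed little among themselves. The mean went from 87.5 ± 8.13 to 36.3 ± 1.16 (SD, n = 3), a ratio of 2.41 and a log2 fold change of -1.24 (limma, SE 0.12, adjusted p = 6.65e-05). SPARC, a collagen-binding glycoprotein, was at 3.88, 3.29 and 5.41 in control libraries, against 2.67, 1.40 and 1.43 with shSTYK1, a log2 fold change of -0.88 (limma, SE 0.22, adjusted p = 0.00464). TNC, which encodes tenascin-C, stood below the limit for testing at 0.76, 0.67 and 0.67 in control libraries, against 0.08, 0.06 and 0.00 with shSTYK1, with no overlap. CCN4 was at 0.23 to 0.44 in control and at 0.28 to 0.38 in shSTYK1 libraries, and its groups overlapped. No other CCN gene had a value here.

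The stretch before the CCN2 start (chr6:131951374-131951622, GRCh38.p14, minus strand, RefSeq) are shown because the TEAD motif GGAATG occurs in them 3 times. Those before COL7A1, which fell (chr3:48595330-48595579, minus strand), and COL6A2, which rose (chr21:46097862-46098096, plus strand), are shown for comparison. Each stretch ends before the earlier of the RefSeq and GENCODE starts. Capitals mark GGAATG, the CCAAT box and the GC box on either strand.

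CCN2: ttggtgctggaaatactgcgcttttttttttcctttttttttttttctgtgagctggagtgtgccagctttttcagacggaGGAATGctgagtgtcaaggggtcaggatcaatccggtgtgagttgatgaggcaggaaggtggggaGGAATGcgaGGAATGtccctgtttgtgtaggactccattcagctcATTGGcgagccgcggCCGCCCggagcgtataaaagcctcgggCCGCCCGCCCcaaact
COL7A1: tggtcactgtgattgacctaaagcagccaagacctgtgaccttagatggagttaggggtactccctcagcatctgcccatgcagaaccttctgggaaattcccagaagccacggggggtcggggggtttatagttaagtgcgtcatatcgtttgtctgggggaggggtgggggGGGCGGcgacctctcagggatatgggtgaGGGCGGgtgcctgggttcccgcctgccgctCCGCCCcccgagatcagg
COL6A2: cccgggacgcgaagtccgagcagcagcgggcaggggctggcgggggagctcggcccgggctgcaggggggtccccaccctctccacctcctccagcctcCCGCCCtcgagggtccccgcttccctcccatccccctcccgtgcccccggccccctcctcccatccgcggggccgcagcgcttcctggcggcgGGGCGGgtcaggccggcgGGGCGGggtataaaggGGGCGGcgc

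RefSeq promoters matched 26 of the 33 genes. ADAMTS1, CCN4, COL1A1, COL6A1, COL9A3, ITGB4 and MMP1 were without one. Of the 14 called lower genes with a promoter, GGAATG was found in 3 (CCN2, COL12A1 and SPARC), against 11.9% of all promoters, and in 0 of 7 called higher genes. The CCAAT box was found in 7 of the 14 and in 0 of the 7, against 33.0% of all promoters. The GC box GGGCGG was found in 11 of the 14 and in 3 of the 7, against 42.3% of all. COL4A1 and COL4A2 are in both the CCAAT and the GC box counts, and their starts lie 127 bases apart. Their windows can share letters, so the same match may be counted for both genes. The AP-1 motif TGANTCA, found in 6.60% of all promoters, was in none of these windows. All motifs were searched on both strands of the 250 upstream bases, and overlapping matches, as of the GC box at the end of the CCN2 window, were each counted. None of the 4 motifs contains another. These counts describe letters and not binding.

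Elastic fibre and microfibril genes were at lower levels. LTBP2, a latent TGF-β binding protein that associates with fibrillin, was at 5.06, 7.01 and 3.54 in control libraries, against 1.07, 1.57 and 1.20 with shSTYK1, well apart, with a log2 fold change of -1.41 (limma, SE 0.21, adjusted p = 0.000394). FBN2, fibrillin-2, was at 0.15, 0.28 and 0.13 in control and was listed at 0 in each shSTYK1 library, below the limit for testing.

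Enzymes that modify collagen moved apart. P3H3, of the prolyl 3-hydroxylase family that acts on newly made collagen in the endoplasmic reticulum, was at 4.58, 6.97 and 3.26 in control libraries, against 1.32, 1.44 and 1.07 with shSTYK1, a log2 fold change of -1.34 (limma, SE 0.22, adjusted p = 0.000657). LOXL1 (ENSG00000129038, chr15:73925989-73952137, plus strand), a lysyl oxidase-like enzyme that cross-links elastin and collagen, was at 0.90, 0.62 and 0.67 in control libraries, against 3.47, 8.96 and 4.38 with shSTYK1. Every shSTYK1 library was well above control, and shSTYK1 replicate 2 was the highest by a wide margin. The log2 fold change of LOXL1 was 1.85 (limma, SE 0.28, adjusted p = 0.000394), and it was 1.51 without shSTYK1 replicate 2. LOXL1-AS1, on the opposite strand with exons that overlap those of LOXL1, was at 0.69, 0.80 and 0.88 in control libraries, against 2.13, 1.37 and 1.87 with shSTYK1, a log2 fold change of 0.63 (limma, SE 0.14, adjusted p = 0.00288). It was at 0.40 after median-of-ratios scaling and at 1.07 with a pseudocount of 0.1. Its highest shSTYK1 library was replicate 1, where LOXL1 had its lowest. The strand setting of the counting is not stated, so reads of the 2 genes may be shared.

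Among the proteases, 2 collagen-cutting metalloproteinases fell and another member rose. MMP14 (chr14:22836557-22849027), the membrane-bound collagenase that also activates MMP2, was at 1.55, 1.70 and 1.59 in control libraries, against 0.15, 0.12 and 0.06 with shSTYK1. The control replicates were nearly equal, and the log2 fold change was -1.24 (limma, SE 0.11, adjusted p = 4.97e-05), or -3.05 with a pseudocount of 0.1. MMP1, the secreted interstitial collagenase, was at 2.22, 1.21 and 1.81 in control libraries, against 0.46, 0.18 and 0.62 with shSTYK1, a log2 fold change of -0.95 (limma, SE 0.19, adjusted p = 0.00142). MMP24, a membrane-type metalloproteinase described mainly in the nervous system, was at 0.46, 0.86 and 0.38 in control libraries, against 1.77, 1.63 and 1.5 with shSTYK1, a log2 fold change of 0.76 (limma, SE 0.15, adjusted p = 0.00138). With a pseudocount of 0.1 MMP1 was at -1.90 and MMP24 at 1.44. No TIMP gene was analysed here.

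ADAM22, a catalytically inactive ADAM family member that binds the LGI proteins, was at 3.92, 2.68 and 4.33 in control libraries, against 2.04, 1.78 and 1.08 with shSTYK1, a log2 fold change of -0.82 (limma, SE 0.20, adjusted p = 0.00424). Both ADAMTS proteases stayed below the limit for testing. ADAMTS1, which cuts large proteoglycans, was at 0.76 to 0.89 in control and at 0.21 to 0.23 in shSTYK1 libraries, and ADAMTS6 was at 0.26 to 0.73 and at 0.06 to 0.32, with overlap. SERPINI1, a serpin that inhibits tissue plasminogen activator and is best known from neurons, was at 1.35, 1.65 and 1.43 in control libraries, against 3.55, 2.99 and 4.00 with shSTYK1, a log2 fold change of 0.86 (limma, SE 0.13, adjusted p = 0.000467). It was the only serpin with a value here.

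**Figure D2:**
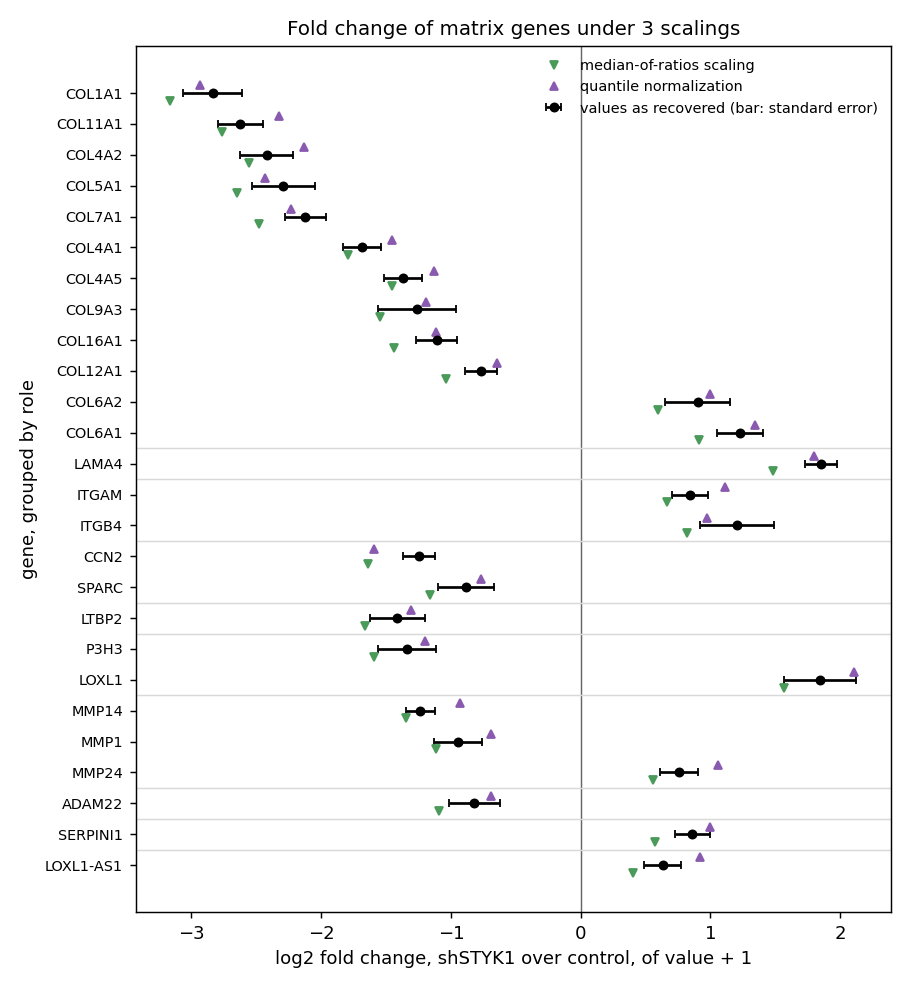
The horizontal axis gives the log2 fold change of value + 1, shSTYK1 over control, for the 26 matrix genes tested, grouped by role. Black points with bars are the limma estimates with their standard errors, green and purple triangles the estimates after median-of-ratios and quantile scaling, and no gene changes sides of 0.

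Genes of matrix biology outside the symbol rule were read from 5 lists with 233 symbols, of which 27 were in the table and 19 reached the limit for testing. Of these, 12 fell and 7 rose, with a median log2 fold change of -1.0. Since 44.5% of all genes tested were called lower and 51.2% higher, the counts of each list describe its genes in a table where nearly every gene is called. Among matrix proteins, IGFBP7, an insulin-like growth factor binding protein of vessel basement membranes, fell from 16.3 ± 0.559 to 0.933 ± 0.275 (SD, n = 3), with a log2 fold change of -3.17 (limma, SE 0.14, adjusted p = 2.89e-06). TINAGL1, a basement membrane glycoprotein, had a log2 fold change of -1.53, and the heparan sulfate proteoglycan GPC6 one of -1.17, or -3.68 with a pseudocount of 0.1. GPC6 reached the limit for testing in control libraries only, which fixed its direction. SRGN, the intracellular granule proteoglycan serglycin, rose from 24.7 ± 2.20 to 52.8 ± 3.4 (SD, n = 3), with a log2 fold change of 1.07. The other 6 genes of this list (SLIT2, HMCN1, OLFML2B, GPC4, NTN1 and PXDN) were below the limit for testing.

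Of the collagen-modifying list, PCOLCE, which enhances the cleavage of procollagen, was the 1 gene tested. It fell from 9.81 ± 2.80 to 3.60 ± 0.398 (SD, n = 3), with a log2 fold change of -1.20 (limma, SE 0.21, adjusted p = 0.000818). Of the 5 genes of the adhesion list, 2 rose, 1 fell and 2 were below the limit for testing. SDC4, the syndecan of focal adhesions, rose from 58.1 ± 1.24 to 120.5 ± 4.21 (SD, n = 3), with a log2 fold change of 1.04, and the integrin-linked adaptor LIMS2 had a log2 fold change of 0.74. After median-of-ratios scaling SDC4 was at 0.64, LIMS2 at 0.46 and SRGN at 0.67, and each kept its call. LAYN, a hyaluronan receptor, fell with a log2 fold change of -1.22. The untested NEDD9, a scaffold of integrin signalling, was at 0.23 to 0.70 in control and at 0.00 to 0.04 in shSTYK1 libraries, and FLNC, filamin C, at 0.46 to 0.71 and at 0.18 to 0.31, neither with overlap.

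The plasminogen and protease list had 3 genes tested, and HTRA1 was the 1 that kept its call under every scaling. HTRA1, a secreted serine protease, went from 6.48 ± 0.273 to 21.0 ± 0.816 (SD, n = 3), with a log2 fold change of 1.56 (limma, SE 0.11, adjusted p = 1.79e-05). The urokinase gene PLAU went from 206.0 ± 23.0 to 423 ± 12.5 (SD, n = 3), with a log2 fold change of 1.04, and the cathepsin inhibitor CSTB had one of 1.22. Both were called higher without further scaling, but with quantile normalization PLAU was at 0.06 (adjusted p = 0.613 from limma) and CSTB at 0.11 (adjusted p = 0.488 from limma). That scaling was computed within this table, where nearly every gene is called. The loss of the 2 calls therefore cannot decide whether these genes changed.

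The TGF-β and YAP list had 44 symbols, of which 8 were in the table. Of these 8 genes, 7 fell and 1 rose, against the same 44.5% and 51.2% of all genes tested. Whether YAP activity differed between the cells was not tested. ANKRD1, like CCN2 a textbook YAP target, was at 10.97, 11.26 and 11.62 in control libraries, against 1.64, 1.69 and 2.60 with shSTYK1, a log2 fold change of -2.06 (limma, SE 0.15, adjusted p = 1.86e-05). INHBB, an activin subunit, had a log2 fold change of -2.26, and AMOTL1, an angiomotin that binds YAP, one of -1.91. BMP4 had a log2 fold change of -1.39, TEAD2 of -1.0, SNAI1 of -0.87 and FSTL1 of -0.61. TGFBR3, the TGF-β co-receptor betaglycan, had a log2 fold change of 0.64, and after median-of-ratios scaling of 0.34 (adjusted p = 0.0642 from limma). That scaling too was computed within this table of called genes, so the lost call is not decisive.

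**Figure D3:**
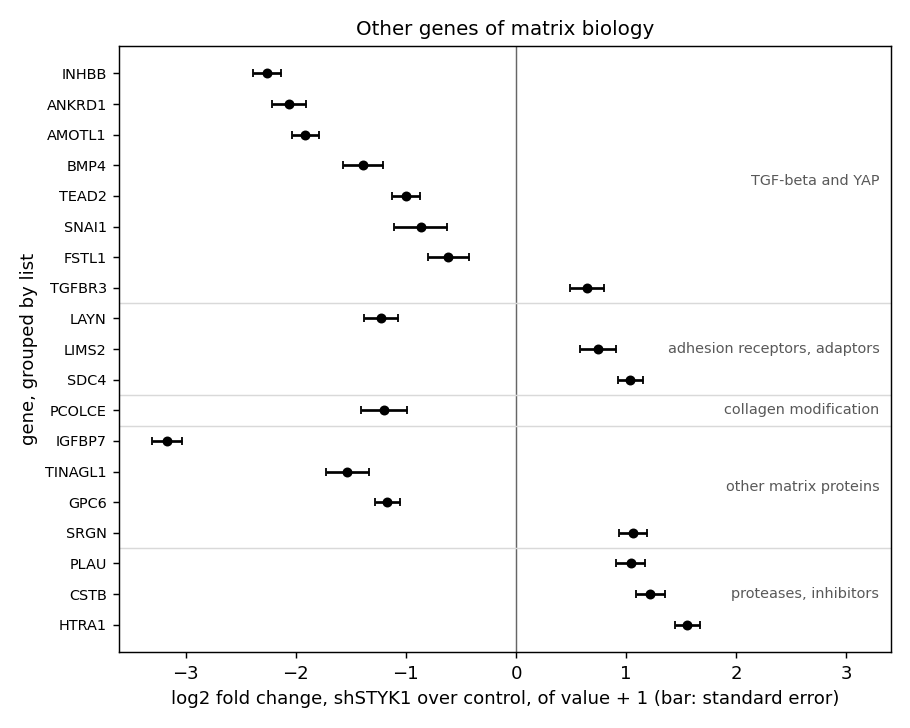
The horizontal axis gives the log2 fold change of value + 1, shSTYK1 over control, with standard errors as bars, for the 19 tested genes of 5 lists outside the symbol rule. Points left of 0 are the 12 genes that fell, and points right of 0 the 7 that rose.

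Of the 10 ductal and 10 mesenchymal markers listed, only the cadherins CDH1 and CDH2 had values, too few to describe a cell state. CDH2, the mesenchymal N-cadherin, fell from 23.6 ± 1.07 to 2.87 ± 0.254 (SD, n = 3), with a log2 fold change of -2.67 (limma, SE 0.12, adjusted p = 2.89e-06). CDH1, the epithelial E-cadherin, was below the limit for testing, at 0.10 to 0.28 in control and 0.85 to 0.94 in shSTYK1 libraries, and the endothelial receptor KDR was listed at 0 in each shSTYK1 library against 0.26 to 0.54 in control. The part of a change in cell state in the matrix genes was not tested.

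Exons of 13 of the 33 genes overlap a gene on the opposite strand: COL16A1, COL4A2, COL9A3, FBN2, LTBP2, LAMA4, CCN2, SPARC, TNC, MMP1, MMP24, LOXL1 and LOXL1-AS1. Without the strand setting, reads of such pairs cannot be told apart, and of the partners only LOXL1 and LOXL1-AS1 were in the table. P3H3 shares exon sequence with GPR162 on its own strand.

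Neighbouring genes of the table were counted within 5 Mb of each matrix gene. All 8 such neighbours of COL16A1 on chromosome 1 were lower, like COL16A1 itself, and 5 of 6 neighbours of COL6A1 were higher, COL6A2 among them. P3H3 was lower while only 2 of its 11 neighbours on chromosome 12 were, and SERPINI1 on chromosome 3 shared its direction with 1 of 3. COL4A5 shared its direction with 4 of 4 neighbours, COL4A6 among them, and COL1A1 with 2 of 6. COL11A1 and LAMA4 had no other table gene within this distance. The genes named are examples, and no count over all matrix genes is given here. By the mean z-score, 499 genes of the whole table were lower and 496 higher. Whether the copy number of such segments differs between the cells was not tested.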

How the data were processed

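RNA-Seq libraries of 3 control and 3 shSTYK1 PANC-1 samples were grouped by their labels. The authors deposited z-scores for 995 genes, each made by centring and scaling a gene's log values over the 6 libraries, so that a score carries no unit. That number equals the changed genes of the study, so the table is a selection made on the same libraries, and p-values computed within it do not account for that. The submitters' processing notes name RSEM, DESeq2 and GRCh38 (hg38), without versions. The aligner, annotation, unit and strand setting are not given in the sources used here.

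Values were recovered (numpy 2.4.6 and numba 0.67.0 under Python 3.11.15) by a search over whole numbers of hundredths, with value + 1 up to 2000. For each gene the smallest set was kept whose logarithms, centred and scaled, equal its z-scores. This solved 994 genes, with z-scores within 5e-12. A factor common to value + 1 in all libraries leaves no trace in z-scores and does not alter a fold change of value + 1. The design assumed such values. A missed common factor would alter a gene's recovered values and the means and ratios computed from them. It would also alter fold changes with another pseudocount or after scaling. No interval or detection limit could be computed without the depth.

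limma 3.58.1 (R 4.3.3; lmFit and eBayes) was run on log2(value + 1) for the 740 genes that reached 1 in 3 or more libraries, and p-values were adjusted by Benjamini-Hochberg over this whole set. Both steps were tested on simulated data, which do not model a table of selected genes. P-values set the difference between the groups against the spread of the replicates within them. Symbols came from a reference table that named 990 of the 995 identifiers, positions from GENCODE 29 (965 located) and promoters from RefSeq (GRCh38.p14). Plots used matplotlib 3.10.9.

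The gene members and lists were chosen with earlier results of these data known. Every member that was tested is named, with values in each library for those with a mean of at least 5 and the largest fold change of each role. The library values of further members were added after they were seen. Of the other lists, up to 4 genes per direction were to be named, and the TGF-β and YAP list is given whole. Alternatives were a pseudocount of 0.1, no filter, a filter of 5, median-of-ratios and quantile scaling, each library left out, a replicate block, eBayes with trend and robust estimation, a minimum log2 fold change of 1 and the deposited z-scores. Both scalings were computed from genes of this table alone, nearly all of them called. Such scalings assume that most genes do not change, so they cannot decide here whether a gene changed.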

Additional observations from a re-analysis of the deposited data

How the results depend on the processing

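All 321 alternative values of the 26 matrix genes kept their direction and stayed under the adjusted p-value threshold of 0.05. The value nearest to it was COL6A2 without shSTYK1 replicate 2 (log2 fold change 0.73, adjusted p = 0.0344 from limma). For the named genes outside the rule, 252 alternative values kept direction and call, and 3 lost the call. All these genes were selected as changed in the same libraries, so such agreement was largely set in advance. A filter of at least 5 in 3 libraries left fewer genes to test, 6 lower and 3 higher. Of all 327 genes tested with that filter, 130 were called lower and 194 higher. A minimum absolute log2 fold change of 1 left 13 lower and 4 higher. Leaving out each library in turn gave 17 lower and 9 higher each time, and 31 to 32 matrix genes without overlap. Of all 740 genes tested, 324 to 328 were then called lower and 365 to 378 higher. The median log2 fold change of all genes tested moved by -0.65 without a filter, which turned its sign, by 0.35 with the filter of 5, by 0.27 with a pseudocount of 0.1 and by -0.25 with median-of-ratios scaling. That scaling gave 30 matrix genes without overlap. A pseudocount of 0.1 moved the fold changes of low genes most, COL4A5 from -1.37 to -3.98. Without a filter 21 matrix genes were called lower, and with the deposited z-scores of all genes 23. Of all 994 genes without a filter, 460 were called lower and 455 higher. For the z-scores, the minimum fold change and the alternative counts without overlap, the share over all genes is not given here.

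The correlations of deviations from the group means between samples of the same number were -0.22, 0.19 and 0.05 over the tested genes for numbers 1, 2 and 3. The replicates numbered 2 correlated best with each other, and the other samples with a different number, so the numbers were not taken to pair the samples. With the replicate block 17 matrix genes were called lower and 9 higher, as without it. Of all 740 genes tested, 329 were then called lower and 385 higher.

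The unknown depth limits the genes with values near 0. The choice of the smallest solution limits the filters, which act on the values themselves. It also limits the group means, their ratios, and the fold changes with another pseudocount or after scaling.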

Other observations

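Within each group, replicate 2 was the highest library for most collagens. In the control group this held for 9 of the 12 collagens tested (75.0%), against 50.0% of all 740 genes tested. In the shSTYK1 group it held for 9 of 12 (75.0%), against 35.5% of all genes. Both collagen VI genes, which rose, had replicate 2 highest in each group. Of the collagens that fell, COL7A1, COL12A1 and COL4A5 had another control library highest, and COL9A3, COL12A1 and COL4A5 another shSTYK1 library. The reason was not tested, and the labels give no batch.

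Of the 7 matrix genes below the limit for testing, TNC (log2 fold change -0.70, adjusted p = 0.000436 from limma) and ADAMTS1 (-0.59, adjusted p = 0.000808 from limma) had the smallest adjusted p-values when the limit was dropped. COL21A1 (-0.88) and FBN2 (-0.25) were also called (adjusted p = 0.0248 and 0.0445 from limma). ADAMTS6, COL4A6 and CCN4 were not (adjusted p = 0.0586, 0.151 and 0.702 from limma).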
